A study of Homo sapiens with 4 samples.

Results

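The comparison set P4, an array of H9 cells in the 300s of passage, against P1, an array of the same line in the 40s, and took for each gene the log2 intensity in P4 minus that in P1. H9, also called WA09, is an established human embryonic stem cell line, and no genotype, transgene or treatment separates the groups in the labels. The labels place 2 more groups between them, P2 in the 100s and P3 in the 200s, and each of the 4 groups was read on 1 Illumina bead array. The sources used here name no feeder cells, medium or clonal history. Of 19951 genes named on the arrays, 11822 were measured here, meaning that they reached the limit of about 38.4 intensity units (the 60th percentile of all probes of an array) in P1, in P4 or in both. With 1 array a side, every difference compares a pair of arrays, no replicate spread exists, and no p-value is given.

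Marker genes showed an undifferentiated state on both arrays, and they do not speak to the cell line or the passage. All 11 markers of undifferentiated stem cells present on the arrays were above the limit in P1 and in P4. Given in the order P1, P2, P3, P4, as all sets of 4 intensities below, they include the transcription factors POU5F1 (4101, 4345, 5445 and 5466), SOX2 (5470, 5224, 4936 and 5129) and NANOG (1672, 1246, 1217 and 1625), and the RNA-binding protein gene LIN28A (18769, 18710, 18826 and 19856). None of 6 mesendoderm markers and none of 4 trophoblast markers reached the limit on either array. Of 8 fibroblast markers, COL1A1, COL1A2 and PDGFRB reached it on both, while COL3A1, DCN, LUM, POSTN and FAP did not. The summed intensity of the fibroblast markers was 1858 in P1 and 3009 in P4. Of 4 blood markers only LCP1, an actin-bundling protein, was above the limit, and of 4 neural markers DCX and STMN2 were. LCP1 read 103, 325, 8869 and 572, and STMN2 read 64.4, 138, 581 and 191, both higher in P4 than in P1. DCX read 232, 135, 265 and 196, lower in P4. In bulk RNA of this kind, fewer cells of a type and less RNA per cell cannot be told apart.

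Human embryonic stem cells can be passaged without limit while POU5F1, SOX2 and NANOG hold them undifferentiated, and long culture is known to select cells with gains of certain chromosome regions, chromosome band 20q11.21 being among the best known. That band holds BCL2L1, whose product blocks apoptosis. Silencing on the X chromosome is also known to vary between pluripotent cultures. Interferon-induced genes form a further programme of interest, since their products detect and restrict viruses and stem cells are known to induce them weakly.

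The arrays were close to each other over most genes. The median difference was 0.03 on the log2 scale over the 11822 measured genes and 0.02 over the 5644 bright genes, which lay at least 10 times above the limit on both arrays. The SD over bright genes was 0.30, and 5346 of them (94.7%) lay within 1.5-fold. The spread was wider for dim genes: 20.9% of genes between 2 and 4 times the limit were past 1.5-fold, against 5.65% of those at 100 times or more. Among 943 genes with 2 bright probes, the SD of a probe's log2 difference within its gene was 0.18. It was taken as the SD of the difference between both probes divided by the square root of 2. This measures agreement within these arrays and not replicate error. The median probe intensity was 17.4 in both P1 and P4.

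Moderate differences, 1.5 to 3-fold, made up nearly all of what separated the bright genes. Of the 5644, 163 (2.89%) were moderately higher and 126 (2.23%) moderately lower in P4, and only 5 and 4 lay past 3-fold. At the 1.5-fold edge, the translation factor gene EIF5 was counted with 745 in P1 and 1117 in P4, while PKMYT1, a CDK1-inhibiting kinase gene, with 406 and 608 fell just short. On the lower side, RPL13 was counted with 3608 and 2405, and SNORA73B with 576 and 385 fell just short. The moderately higher genes had a median intensity of 863, 1162, 1327 and 1495. The moderately lower genes had medians of 1834, 1398, 1367 and 1093. With dim genes included, 217 of the measured genes (1.84%) passed 2-fold on the higher side and 145 (1.23%) on the lower. Among bright genes alone these were 32 (0.567%) and 18 (0.319%).

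**Figure D1:**
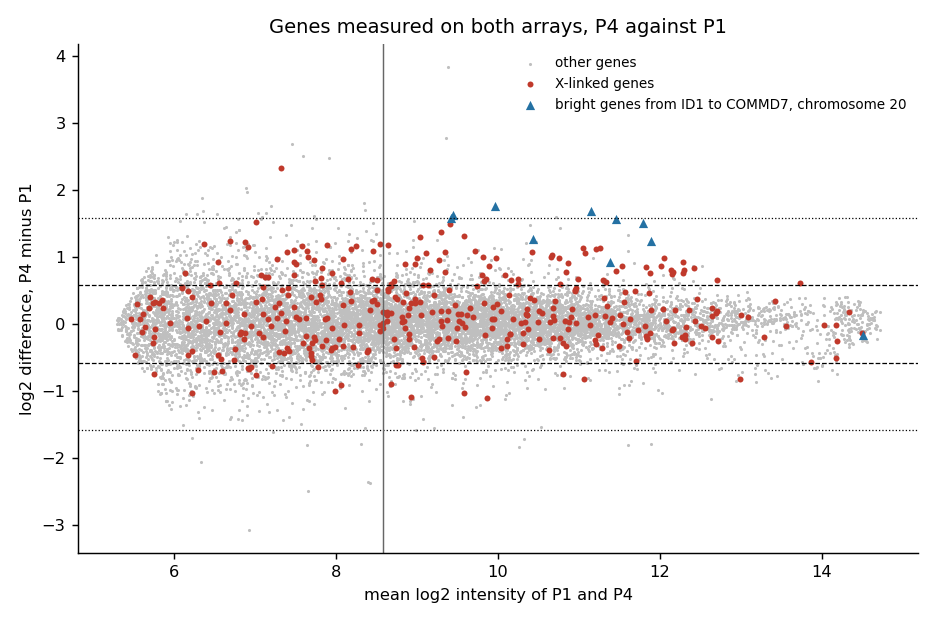
Log2 difference between P4 and P1 (vertical axis) against the mean log2 intensity of both arrays (horizontal axis), 1 point for each of the 10973 genes measured on both. Dashed lines mark 1.5-fold, dotted lines 3-fold and the vertical line the bright limit; X-linked genes (red) and the bright chromosome 20 genes from ID1 to COMMD7 (blue triangles) stand out on the upper side.

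The genes of the X chromosome carried a large share of the moderate differences. Of 213 bright X-linked genes, 47 (22.1%) were at least 1.5-fold higher in P4, against 121 of 5431 bright genes elsewhere (2.23%), and over all bright genes the share was 2.98%. All 47 stayed under 3-fold, so they made up 47 of the 163 moderately higher genes. Only 6 bright X-linked genes (2.82%) were at least 1.5-fold lower, near the 2.28% found elsewhere and the 2.3% over all bright genes. Among all 432 measured X-linked genes, 105 (24.3%) were at least 1.5-fold higher, against 6.16% of measured genes off the X, and 27 (6.25%) at least 1.5-fold lower, against 5.48%. The median bright X-linked gene differed by only 0.13 on the log2 scale, so most X-linked genes did not share the difference.

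By chromosome, the share of bright genes at least 1.5-fold higher lay between 0% and 7.98% on the 22 autosomes. Chromosome 20 held that highest value, and no other autosome passed 4.27%. The share at least 1.5-fold lower ran from 0.791% to 3.56% on the autosomes, and the X chromosome at 2.82% fell inside that range.

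**Figure D2:**
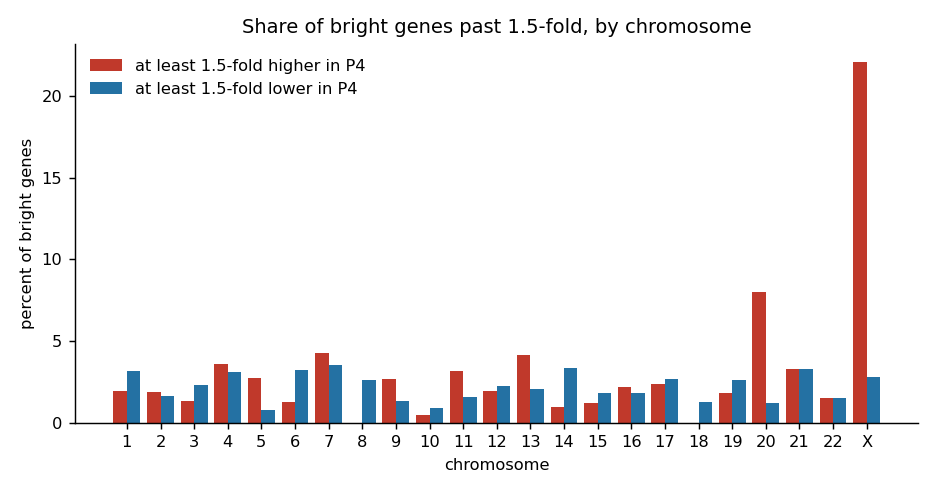
Percent of bright genes at least 1.5-fold higher (red bars) and at least 1.5-fold lower (blue bars) in P4 than in P1, for each chromosome on the horizontal axis. The X chromosome stands at 22.1% higher, chromosome 20 at 7.98%, and the lower shares stay at or under 3.56%.

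Several of the brightest moderately higher genes of the whole comparison were X-linked, 9 of the first 15. The brightest was BEX3, a small adaptor-like protein of the BEX family, with 10981, 13288, 16433 and 16749, 1.53-fold higher. MORF4L2, a chromatin protein of the NuA4 acetyltransferase complex, read 4096, 6923, 7659 and 7350, 1.79-fold higher. Both were lowest in P1, and P3 and P4 lay close together.

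NDUFB11, a subunit of respiratory complex I, followed a different order over the arrays. It read 3623, 3586, 7639 and 6882, 1.90-fold higher in P4. UXT, a prefoldin-like cochaperone, read 3831, 3608, 7398 and 6521 and was 1.70-fold higher. TIMP1, an inhibitor of matrix metalloproteinases, read 3024, 2713, 6691 and 5994 and was 1.98-fold higher. In these 3 genes P1 and P2 formed the low pair and P3 and P4 the high pair, with no overlap. The kinase gene ARAF (951, 1056, 1992 and 1996, 2.10-fold) and the ternary complex factor gene ELK1 (1232, 1131, 2377 and 2440, 1.98-fold), which lie on either side of TIMP1 in map order, had the same order.

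The remaining bright X-linked genes covered unrelated functions. PDHA1, the catalytic alpha subunit of pyruvate dehydrogenase, read 1607, 1643, 1936 and 3495, 2.17-fold higher, with P4 alone standing high. SRPX, a sushi-repeat protein, was 2.82-fold higher and had the largest difference of the bright X-linked genes, from 405 in P1 to 1139 in P4. The tetraspanin gene TSPAN7 was 2.59-fold higher, and the Golgi UDP-galactose transporter gene SLC35A2 read 484, 1305, 1228 and 1208, a log2 difference of 1.32. MAOA, which degrades monoamines, was 2.01-fold higher, RAB9A, a GTPase of endosome to Golgi transport, 2.09-fold and the ubiquitin ligase gene MID1 2.21-fold. In all, 12 of the 47 were at least 2-fold higher. ATP6AP2, an accessory subunit of the vacuolar proton pump, was 1.71-fold higher and the myelin-related membrane protein gene GPM6B 1.75-fold.

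Other probes of the same genes mostly read the same way. Of the 47 genes, 18 had a further measured probe, and its log2 difference was above 0 for all 18 and at least 1.5-fold higher for 13. In MID1IP1 the probes gave log2 differences of 0.87 and 0.86, and in SH3KBP1 both gave 1.04.

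In map order (RefSeq gene order, GRCh38.p14), the higher genes were bunched. From MID1 to PIM2, a stretch of the short arm, 29 of 60 bright genes were at least 1.5-fold higher and none lower, with a median log2 difference of 0.54. The median intensity of these 60 was 1591, 1560, 2318 and 2383. From BEX4 to TSC22D3 on the long arm, 11 of 12 were higher, with a median of 0.85. Over the other 141 bright X-linked genes, 7 were higher and 6 lower, with a median of 0.05. Both stretches had their ends set with the values in view, so their contrast with the rest is a description. TMSB15B, within the second stretch, was the only one of its 12 that was not higher.

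**Figure D3:**
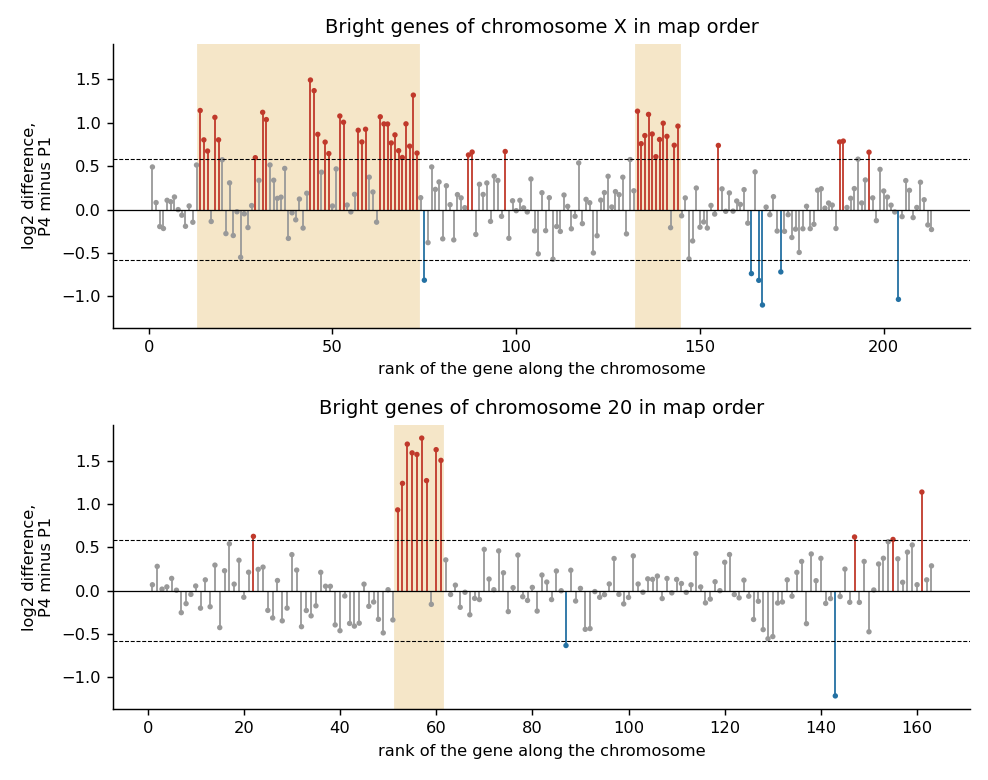
Log2 difference between P4 and P1 (vertical axis) of the bright genes of chromosomes X (top) and 20 (bottom), by their rank along the chromosome (horizontal axis). Red marks genes at least 1.5-fold higher, blue at least 1.5-fold lower and grey the rest. Shading marks MID1 to PIM2 and BEX4 to TSC22D3 above, with 29 of 60 and 11 of 12 genes higher. Below, it marks ID1 to COMMD7, with 9 of 10. The ends of all shaded runs were set with the values in view.

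Most BEX and TCEAL genes, which encode small related proteins, lie in the second stretch, while TCEAL2, BEX5 and BEX1 lie just before it with log2 differences of 0.17, 0.37 and 0.22. Of 13 measured members, 9 passed 1.5-fold, all of them higher in P4, with a median of 0.81. This list was added after the values were seen, and it overlaps the stretch, whose ends were set likewise. Its count is therefore a description and not a separate result from that of the stretch. At least 1.5-fold higher were 6.83% of all measured genes and 24.3% of measured X-linked genes. BEX4 was 2.19-fold higher (1431, 1520, 2870 and 3140), TCEAL7 2.14-fold, TCEAL3 1.99-fold and TCEAL9 1.83-fold. The genes resemble each other, and their probes may share signal. PRPS1, which makes the ribose phosphate donor of nucleotide synthesis, lies in the same stretch and was 1.67-fold higher (3520, 5511, 5933 and 5883).

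Genes known to escape X silencing in other human cells had a median near that of all genes. Of 23 measured members of that list, which was added after values were seen, 2 (8.70%) were at least 1.5-fold higher and none lower. Over all measured genes 6.83% were higher and 5.51% lower, and over measured X-linked genes 24.3% and 6.25%. The list's median log2 difference was -0.00, beside 0.03 over all measured genes. RNA helicase gene DDX3X gave 0.47 and translation factor gene EIF1AX 0.51, while the ribosomal protein gene RPS4X gave -0.51 and SYAP1 -0.55. The 6 lower X-linked genes were the phosphoinositide phosphatase gene OCRL (2.15-fold lower), the interleukin receptor kinase gene IRAK1 (2.05-fold), the chromatin remodeller gene SMARCA1 (1.76-fold), SHROOM4 (1.76-fold), the cohesin gene STAG2 (1.67-fold) and IGSF1 (1.65-fold). None of them lies in either stretch.

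Chromosome band 20q11.21 held the largest differences on the higher side among bright genes. From ID1 to COMMD7, 9 of 10 bright genes were at least 1.5-fold higher, and the median log2 difference was 1.54. The exception was POFUT1, the brightest of the 10, at 24539, 21874, 21753 and 22012, a log2 difference of -0.16. Median intensities of these 10 were 1453, 1697, 2877 and 3890. The rest of chromosome 20 had 4 of 153 bright genes higher, 2 lower and a median of 0.01. The ends of this run were also set with the values in view, so its contrast with the rest is a description. Over the list of the band, 11 of 15 measured members passed 1.5-fold, all on the higher side, beside 6.83% higher and 5.51% lower over all measured genes, and the list's median was 1.27.

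The genes of the band sat on both sides of the 3-fold edge. COMMD7, a member of the COMMD family of trafficking proteins, read 2113, 3400, 5080 and 5991, 2.84-fold higher. TM9SF4, a transmembrane protein of the endosomal system, read 1636, 2541, 3782 and 4863, 2.97-fold higher. BCL2L1 read 2472, 2951, 4378 and 5831, 2.36-fold higher. In these 3 each array lay above the one before it. KIF3B, a kinesin subunit, was 3.09-fold higher, PDRG1 3.01-fold, the zinc finger gene PLAGL2 2.41-fold and the pseudogene TSPY26P, whose probe may share signal with related genes, 3.39-fold. DNMT3B, a de novo DNA methyltransferase just past the run, read 7589, 6651, 6709 and 9709, 1.28-fold higher. With its probes averaged, its log2 difference was 0.61, past 1.5-fold.

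Outside the X chromosome and this band, the brightest moderately higher genes were of varied kinds. RASL11B, a small GTPase-like protein, read 4352, 3336, 6229 and 7961, 1.83-fold higher. DPPA4, a chromatin factor of pluripotent cells, read 4357, 5663, 5965 and 6832, 1.57-fold higher. LAMA5, a laminin chain of basement membranes, read 3892, 6237, 5723 and 5982, 1.54-fold higher. DPPA4 and RASL11B peaked in P4, whereas LAMA5 was highest in P2. MT1X, a metal-binding metallothionein, read 3613, 1340, 865 and 5795 and was 1.60-fold higher, with P2 and P3 far under both arrays compared here. Other bright metallothioneins went both ways. MT1F gave a log2 difference of 0.42, and MT1H gave -0.37, or -0.69 with its probes averaged. Metallothioneins are near-identical, and their probes may share signal. HDAC1, a histone deacetylase, was 1.66-fold higher (3260, 5085, 5218 and 5396), with P1 standing low alone.

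Interferon-induced genes were more often higher than lower. Of 39 measured members, 14 were at least 1.5-fold higher and 3 lower, beside 6.83% and 5.51% over all measured genes, and the median was 0.34. The 4 promoter windows shown here belong to members with large differences, so that the sequence shared by such genes can be seen. Each window is the 170 bases just before the RefSeq start (GRCh38.p14), 5′ to 3′ on the strand of the gene, with the core of the interferon-stimulated response element in capitals. That core was searched as TTTC, any 2 bases, TTTC, or on the other strand GAAA, any 2 bases, GAAA.
IFIT1, chr10:89392453-89392622, plus strand: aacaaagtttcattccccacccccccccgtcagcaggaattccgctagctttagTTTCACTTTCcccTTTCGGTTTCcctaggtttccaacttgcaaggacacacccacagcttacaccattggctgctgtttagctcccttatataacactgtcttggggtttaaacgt
IFIT3, chr10:89332359-89332528, plus strand: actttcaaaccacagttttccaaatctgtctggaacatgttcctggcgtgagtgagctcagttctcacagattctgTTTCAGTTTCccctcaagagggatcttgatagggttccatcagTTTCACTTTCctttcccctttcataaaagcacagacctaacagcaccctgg
ISG15, chr1:1013327-1013496, plus strand: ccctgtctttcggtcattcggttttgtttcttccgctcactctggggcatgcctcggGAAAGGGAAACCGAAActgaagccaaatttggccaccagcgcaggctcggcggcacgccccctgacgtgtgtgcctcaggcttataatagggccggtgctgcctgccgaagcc
HERC5, chr4:88456949-88457118, plus strand: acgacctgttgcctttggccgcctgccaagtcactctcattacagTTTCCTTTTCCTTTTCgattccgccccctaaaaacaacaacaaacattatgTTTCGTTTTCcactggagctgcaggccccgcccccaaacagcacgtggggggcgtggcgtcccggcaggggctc
IFIT1, IFIT3 and ISG15 each show 2 matches and HERC5 shows 3, and in ISG15 and HERC5 the matches overlap.

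The same motif was counted in the 250 bases before the start of every gene in the promoter table. All 10 of the higher interferon genes with a promoter in the table held it, and so did 9 of the 21 other measured members. Over 9478 measured genes with a promoter, 3.28% held it. A match describes these letters only, and binding was not measured.

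IFIT1, which binds viral RNA lacking host caps, read 176, 128, 249 and 2518, 14.3-fold higher. HERC5, the ligase that attaches ISG15 to proteins, read 1971, 1510, 1347 and 4968, 2.52-fold higher. ISG15 itself, a ubiquitin-like modifier, read 967, 1067, 1506 and 2937, 3.04-fold higher. In IFIT1 and HERC5 the P4 array stood above the other arrays, which did not step upward, while ISG15 was higher on each later array. The median of the 14 higher genes was 102, 114, 70.7 and 318, so most were dim. IFIT2 (24.3 in P1 and 996 in P4) was under the limit in P1 and at least 25.9-fold higher. IFIT3 (16.7 and 399) had a bound of 10.4-fold. MX2, an antiviral GTPase, was at least 6.33-fold higher, the RNA sensor gene IFIH1 2.30-fold and the exonuclease gene ISG20 2.25-fold. SP100 (-1.08), XAF1 (-0.75) and PML (-0.59) were the 3 lower members. BST2, which tethers virus particles, read 1104, 1092, 2601 and 840, with P3 high and P4 low.

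The genes of MHC class I presentation differed little. Of 17 measured members 1 was at least 1.5-fold higher and none lower, beside 6.83% and 5.51% over all measured genes. The list's median was 0.21. Among bright members, B2M, the light chain of class I molecules, read 1844, 1784, 3731 and 2676 and was 1.45-fold higher. HLA-F gave a log2 difference of 0.57, the peptidase gene ERAP2 0.40 and the peptide transporter gene TAP1 0.34.

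**Figure D4:**
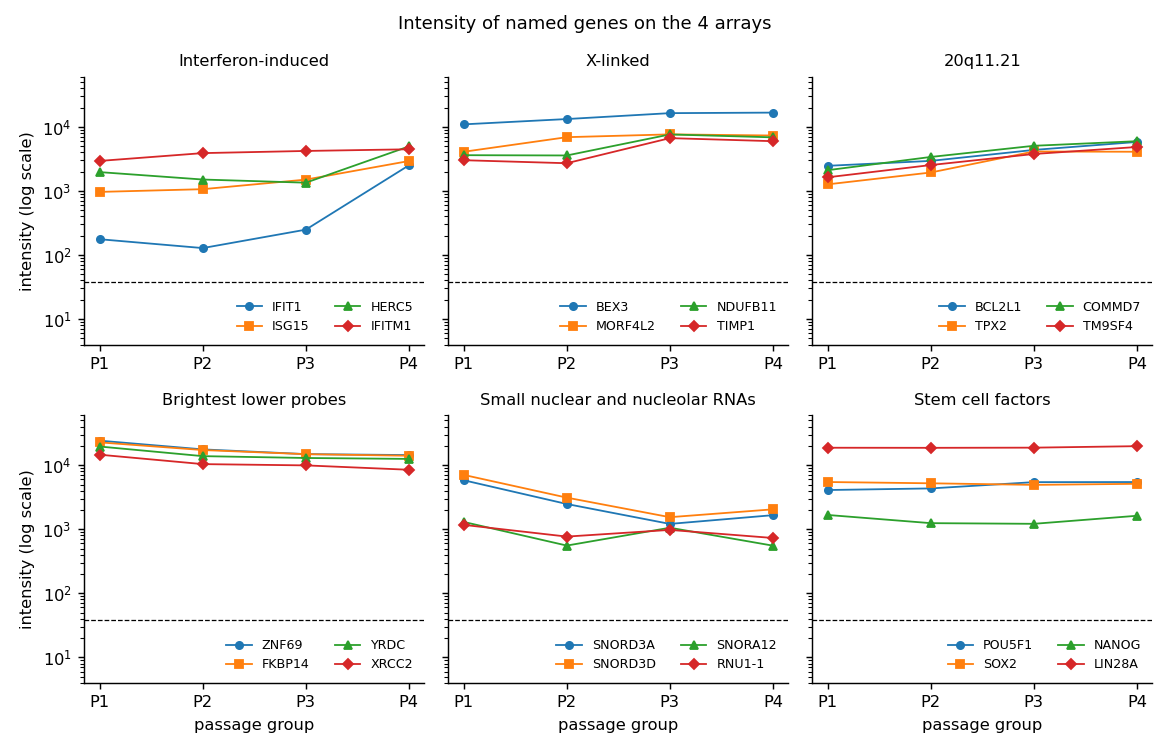
Intensity (log scale, vertical axis) of 24 genes on the 4 arrays (horizontal axis), in panels by gene group, 1 line per gene and 1 array per point; the dashed line is the limit of about 38.4. IFIT1 stands at 2518 in P4 against 128 to 249 on the other arrays. The 20q11.21 and X-linked genes drawn, which were picked from among the higher ones, sit higher in P3 and P4 than in P1 and P2. POU5F1, SOX2, NANOG and LIN28A stay within 1.5-fold between P1 and P4.

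Among signalling lists, immediate early genes, which are transcribed within minutes of growth factor signals, had 7 of 31 measured members past 1.5-fold, all higher, against 6.83% of all measured genes, with a median of 0.27. FOS read 69.0, 157, 479 and 446, 6.46-fold higher, and EGR1 read 586, 792, 1093 and 1265, 2.16-fold higher. Both were lowest in P1. PHLDA1 was 1.77-fold, KLF6 1.65-fold and IER2 1.56-fold higher. Feedback inhibitors of FGF signalling were part of the same picture only in part: SPRY4 was 1.67-fold higher, SPRY1 and SPRY2 gave log2 differences of 0.37 each and IL17RD gave -0.44, or 0.06 with its probes averaged. That list of 24 had 2 members higher, close to the 6.83% of all measured genes, and none lower, with a median of 0.10.

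The nodal and TGF-beta list, which covers a pathway that maintains human stem cells, had 5 of 28 members higher and none lower, with a median of 0.11, beside 6.83% higher and 5.51% lower over all measured genes; the shares of the Wnt, BMP and Hippo lists that follow rest on at most 3 genes each way. All 5 were dim. The ligand gene NODAL read 80.2, 139, 98.0 and 272, and its inhibitor gene LEFTY1 read 175, 663, 388 and 610. In the NOTCH list 4 of 21 were higher and none lower, with a median of 0.08; LFNG, which glycosylates NOTCH receptors, was 2.17-fold higher (716, 984, 1115 and 1551) and the target gene HES4 1.70-fold. In the Wnt list 2 of 31 were higher and 3 lower, with a median of -0.14. Its feedback inhibitor AXIN2 read 863, 939, 1266 and 1987, 2.30-fold higher, with each array above the one before. The BMP list had 1 of 13 higher and 2 lower, and its higher member ID1, a differentiation inhibitor on 20q11.21, was 1.91-fold higher, or 1.63 on the log2 scale with its probes averaged. EDNRB, an endothelin receptor, read 1064, 727, 1275 and 2875 and was 2.70-fold higher, and the receptor kinase gene ERBB2 read 4122, 4518, 2216 and 2203 and was 1.87-fold lower. Hippo pathway genes had 1 of 19 higher and none lower, with a median of 0.12.

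Genes of the stem cell state were mostly level. Of 39 core pluripotency genes, all measured, 4 (10.3%) were at least 1.5-fold higher and 2 (5.13%) lower, with a median of 0.03. Over all measured genes 6.83% were higher and 5.51% lower, which is the background of each count in this paragraph. THY1, a surface glycoprotein used as a stem cell marker and also made by fibroblasts, read 3659, 4041, 5068 and 5811, 1.59-fold higher. TERF1, which coats telomeres, read 6142, 2552, 4145 and 3805 and was 1.61-fold lower, or -0.46 on the log2 scale with its probes averaged, which is short of 1.5-fold. ZIC2, a zinc finger factor of primed stem cells, read 11565, 10731, 8619 and 7372 and was 1.57-fold lower. THY1 was higher and ZIC2 lower on each later array, whereas TERF1 was lowest in P2. Naive-associated genes had 1 of 13 higher and 2 lower, with a median of 0.21. Of ectoderm and neural genes 18 of 35 were measured, 3 higher and 2 lower, and NES, an intermediate filament of progenitor cells, was 1.60-fold higher (2037, 2491, 2902 and 3249). Only 5 of 32 mesendoderm and endoderm genes and 4 of 26 trophoblast genes were measured.

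Mesenchymal and matrix genes were more often higher than lower. Of 26 measured members of the fibroblast and mesenchymal list, 10 were at least 1.5-fold higher and 1 lower, with a median of 0.42, beside 6.83% higher and 5.51% lower over all measured genes, a background that also stands beside the next counts. LGALS1, a galectin, read 929, 1140, 3105 and 2169, 2.33-fold higher, and COL1A1, the main collagen I chain, read 467, 708, 807 and 943, 2.02-fold higher. COL1A2 was 1.56-fold higher. TIMP1 and THY1, described above, are also in this list, and TIMP1 lies in the X-linked stretch. Defining fibroblast markers COL3A1, DCN, LUM, POSTN and FAP stayed under the limit on both arrays, and the smooth muscle actin gene ACTA2 gave -0.83. In the wider matrix list 12 of 80 were higher and 4 lower, with a median of 0.16; the proteoglycan gene BGN, which is X-linked, was 1.58-fold higher and the protease gene ADAMTS19 1.63-fold lower. The part of other cell types in these values was not tested beyond the markers given. Clustered protocadherins, neural adhesion proteins with related sequences whose probes may share signal, had 6 of 15 measured members higher and 1 lower, with a median of 0.43. PCDHB5 was the 1 bright member past 1.5-fold, 1.85-fold higher (491, 544, 658 and 908).

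**Figure D5:**
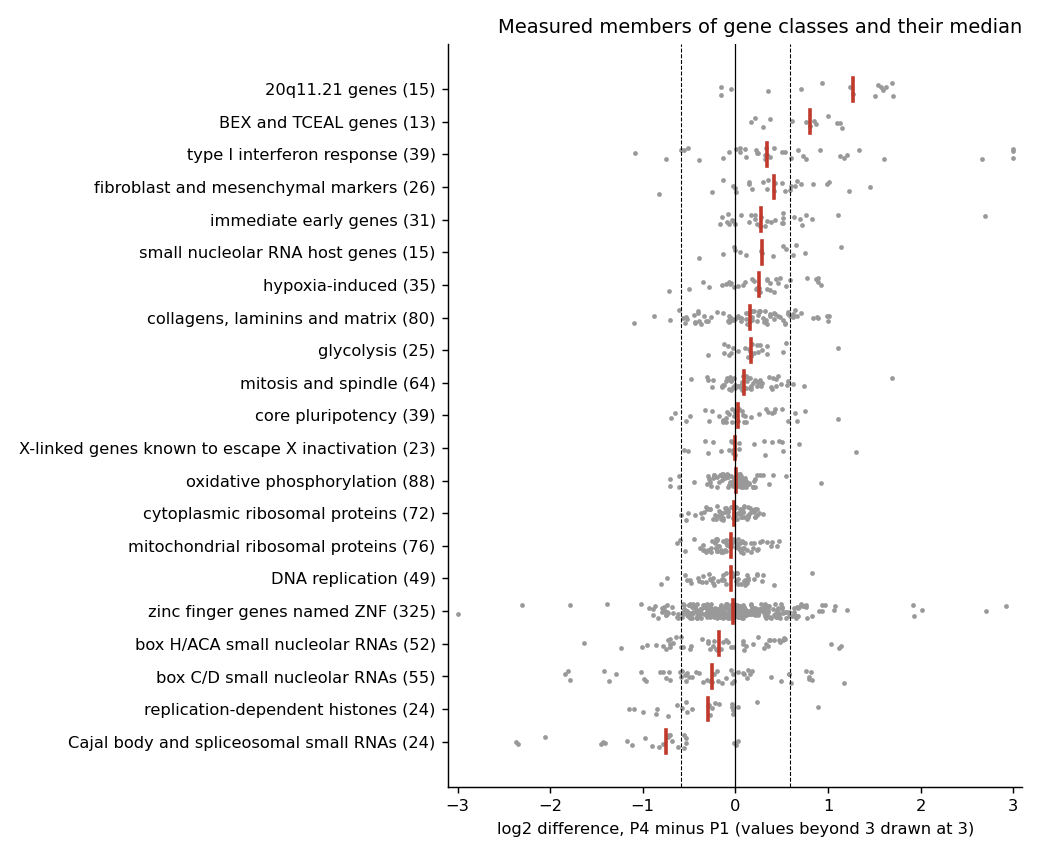
Log2 difference between P4 and P1 (horizontal axis) of the measured members of 21 gene classes (grey points, vertical scatter within a class has no meaning, and values beyond 3 are drawn at 3) with the class median in red and 1.5-fold marked by dashed lines. Medians run from 1.27 for the 20q11.21 genes to -0.75 for Cajal body and spliceosomal small RNAs.

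Cell division genes were near level. Each list count in this paragraph stands beside 6.83% higher and 5.51% lower over all measured genes. Of 64 mitosis and spindle genes, 3 were at least 1.5-fold higher and none lower, with a median of 0.09. These were the spindle assembly factor TPX2 of 20q11.21 (1269, 1944, 4137 and 4098, 3.23-fold), the kinetochore motor gene CENPE (1.67-fold) and the phosphatase gene CDC25B (1.54-fold). DNA replication genes had 1 of 49 higher and 2 lower, with a median of -0.05. The origin recognition gene ORC5 was 1.74-fold lower and PRIM1, which primes new strands, read 2164, 1628, 1466 and 1299 and was 1.67-fold lower, or -0.56 on the log2 scale with its probes averaged, short of 1.5-fold. Of 60 repair genes, 2 were higher and 4 lower. CCND3, a G1 cyclin, read 1171, 1430, 2198 and 2166 and was 1.85-fold higher. CDKN1A, a p53 target that encodes p21 and halts the cell cycle, read 1566, 489, 89.7 and 2546 and was 1.63-fold higher, with both middle arrays lower than the pair compared. Over the p53 target list, 2 of 31 were higher and 2 lower, with a median of 0.06, and the lower bright member was POLH, a translesion polymerase, at 2.02-fold.

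Replication-dependent histone genes had 7 of 24 measured members at least 1.5-fold lower and 1 higher, with a median of -0.29, beside 5.51% lower and 6.83% higher over all measured genes. H4C3 was the 1 bright member past 1.5-fold, at 21295, 18521, 18416 and 11854, a log2 difference of -0.85, and histone copies can share probe signal. Histone variants outside the clusters had none of 10 past 1.5-fold, with a median of -0.01. Of 74 modifiers and remodellers, 10 were higher and 3 lower; among bright ones were HDAC1 and the X-linked methyltransferase gene SUV39H1 (1.52-fold). None of 11 DNA methylation enzymes passed 1.5-fold by its brightest probe: TET1 gave -0.52, MBD4 -0.47, MBD2 0.44 and DNMT3B 0.36. With its probes averaged, DNMT3B gave 0.61, which is past 1.5-fold. Zinc finger genes named ZNF had 29 of 325 higher and 25 lower, a median of -0.03, and, among 110 bright ones, 2 higher and 7 lower, beside 2.98% and 2.3% of all bright genes. ZNF649 read 1231, 374, 470 and 472 and was 2.61-fold lower, with P1 standing high alone. The polycomb gene RYBP was 2.31-fold lower and read 1049, 1033, 889 and 454, with P4 standing low alone.

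Cajal body and spliceosomal RNAs were mostly lower in P4, and nucleolar RNAs were divided. Of 24 measured Cajal body and spliceosomal RNAs, 17 passed 1.5-fold, all on the lower side, against 5.51% of all measured genes, and the median of -0.75 was the lowest of the 73 lists. The 17 had median intensities of 165, 85.5, 87.6 and 69.8. SCARNA8 read 785, 209, 212 and 151, 5.18-fold lower, and RNU1-1, a gene of the U1 RNA that recognises 5′ splice sites, read 1171, 768, 977 and 731, 1.60-fold lower. P1 stood highest for both. The other bright U1 copies RNU1-3, RNVU1-18 and RNVU1-7 gave -0.55, -0.56 and -0.54, just short of 1.5-fold, and near-identical copies may share signal.

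Box C/D small nucleolar RNAs, which guide ribose methylation, had 16 of 55 lower and 7 higher, with a median of -0.25, beside 5.51% and 6.83% over all measured genes, and 18 of the 55 had a difference above 0. The U3 copies SNORD3A (5830, 2481, 1212 and 1660, 3.51-fold lower), SNORD3D (3.45-fold) and SNORD3C (3.58-fold) are near-identical, and their probes may share 1 signal. Box H/ACA RNAs, which guide pseudouridylation, had 13 of 52 lower and 3 higher and 20 above 0, with a median of -0.17, and SNORA12 read 1302, 556, 1057 and 554, 2.35-fold lower. The host genes from which such RNAs are spliced went against this: 4 of 15 were higher, against 6.83% of all measured genes, and none lower, with a median of 0.29, among them SNHG15 (1.68-fold), SNHG7 (1.57-fold) and SNHG1 (2042, 4400, 3203 and 3135, 1.53-fold). With its probes averaged, SNHG7 gave a log2 difference of 0.22, short of 1.5-fold. Among messenger RNAs of splicing, HNRNPU read 10504, 7945, 6913 and 5843 (log2 difference -0.85). SNRPD1 was 1.68-fold lower, RBM5 1.97-fold higher and HNRNPDL 1.93-fold higher, though with its probes averaged HNRNPDL gave a log2 difference of 0.22, and the list of 134 had 5 each way.

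Translation and energy metabolism were close to level. Counts of measured members here stand beside 6.83% higher and 5.51% lower over all measured genes. Of 72 cytoplasmic ribosomal protein genes, 1 passed 1.5-fold, RPL13 on the lower side with a log2 difference of -0.59, and the median was -0.01. Mitochondrial ribosomal proteins had 2 of 76 lower and none higher (median -0.05), ribosome biogenesis 2 of 68 lower and none higher (-0.06), and none of 18 transfer RNA synthetases passed 1.5-fold (0.03). Oxidative phosphorylation had 4 of 88 lower and 1 higher, with a median of 0.00. Its higher member was the X-linked NDUFB11, and its bright lower members were the complex I gene NDUFB9 (3401, 2424, 2315 and 2079, 1.64-fold), the succinate dehydrogenase gene SDHD (1.53-fold) and DMAC2L (1.52-fold). In the citric acid cycle list the higher member was likewise X-linked, PDHA1. In nucleotide synthesis the 3 bright higher genes were X-linked PRPS1 and PRPS2, which are near-identical paralogs, and IMPDH1 (1.67-fold, but a log2 difference of 0.10 with its probes averaged). In cholesterol synthesis the 1 higher gene of 22 was the X-linked isomerase gene EBP (1.60-fold).

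Glycolysis genes had a median of 0.16 with 1 of 25 higher, a gene that was not bright. Among bright ones PKM, the last enzyme of the pathway, had the largest difference (2398, 2395, 2796 and 3429, 1.43-fold), short of 1.5-fold. Hypoxia-induced genes had 6 of 35 higher and 1 lower, with a median of 0.25, beside 6.83% higher and 5.51% lower over all measured genes, and the peptide hormone gene ADM read 4039, 5578, 4044 and 7372, 1.83-fold higher. Cytosolic chaperones had 9 of 78 lower and 1 higher, with a median of -0.05. TCP1, a chaperonin subunit, was 1.57-fold lower, but its log2 difference was -0.42 with probes averaged, short of 1.5-fold. Redox genes had 6 of 45 lower and 2 higher, and GCLM, which limits glutathione synthesis, was 1.75-fold lower (2939, 2015, 2040 and 1677), but gave -0.43 with probes averaged, likewise short of it. None of 22 housekeeping reference genes passed 1.5-fold, and their median was 0.05.

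The brightest genes that were moderately lower were brighter than the higher ones. In P1, 30 of the 126 read over 5000, against 2 of the 163 moderately higher genes and 701 of all 5644 bright genes. Genes picked as lower in P4 read higher in P1 by that choice. In P4 the median was 1093 for the moderately lower genes and 1495 for the moderately higher ones. The 15 brightest lower genes had intensities of 12640 to 24207 in P1 and of 6909 to 14412 in P4, at most 1.83-fold lower. They include ZNF69 (24207, 17682, 14924 and 14412), the prolyl isomerase gene FKBP14 (22766, 17272, 14893 and 14078), YRDC, which modifies transfer RNAs (19602, 13872, 12984 and 12553), and XRCC2, a DNA repair gene (14609, 10412, 9947 and 8501). All 15 were highest in P1 and lowest in P4, and in the 4 given the largest step lay between P1 and P2. That was not so in all 15. In H4C3 (21295, 18521, 18416 and 11854) it lay between P3 and P4. In NLRP8 (19213, 16640, 13907 and 12200) it lay between P2 and P3. The others were BLZF1, LOC100128288, H4C3, ABRAXAS1, NLRP8, COA8, QRFPR, TDP1, FMC1, EXO5 and BLOC1S6.

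The next probe of these genes seldom read as bright. Of the 15, 13 had several probes, and in 10 the next probe was over 10 times dimmer, in 4 of them under the limit on both arrays. For XRCC2 the next probe read 36.2 in P1 and 36.8 in P4. For ZNF69 the next probe read 640 in P1 and 866 in P4, which is higher in P4, and for FMC1 it read 1509 and 1748. BLZF1 was an exception, with 6334 and 4084 on its next probe, also lower in P4. With probes averaged, ZNF69 (-0.16), FKBP14 (-0.41), YRDC (-0.29), TDP1 (-0.24), FMC1 (-0.12), EXO5 (-0.27) and BLOC1S6 (-0.54) fell short of 1.5-fold on the log2 scale.

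Among all 126 moderately lower genes, 72 had several probes, and in 45 of these (62.5%) the next probe was over 10 times dimmer. The share was 37.1% among the moderately higher genes and 35.8% among all bright genes. Of the 48 next probes that were measured, 40 had a log2 difference below 0 and 8 above 0, and 14 were at least 1.5-fold lower. In the moderately higher genes, 42 of 57 next probes had a difference above 0, and 30 were at least 1.5-fold higher.

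Lower bright genes with large differences outside the small RNAs were few. CHGA, a secretory granule protein of neuroendocrine cells, read 2319, 706, 2377 and 709 and was 3.27-fold lower, with P1 and P3 high and P2 and P4 low. PRICKLE1, of planar cell polarity, read 2537, 1413, 1454 and 871 and was 2.91-fold lower, and FAM217B read 1340, 1383, 714 and 578 and was 2.32-fold lower. UBE2T, a ubiquitin-conjugating enzyme of the Fanconi pathway, was 2.18-fold lower, from 1612 to 739.

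Beyond the bright genes, 849 measured genes were under the limit on 1 of both arrays, 396 of them in P4 and 453 in P1. Bounds move with the limit. Those on the lower side were largest for CHCHD2, a mitochondrial protein (8173 in P1, and under the limit on the other arrays), at least 213-fold, and for CRYZ, a quinone reductase, at least 47.9-fold. ZNF680 was at least 16.6-fold and TRIM4 at least 11.1-fold lower. All 4 were under the limit from P2 onward and belong to a list of genes known for variable silencing among pluripotent cell lines, chosen with such results known. That list had 6 of 15 measured members lower and 3 higher, with a median of -0.34, beside 5.51% and 6.83% over all measured genes. With the floor at the 50th or the 75th percentile its median was -0.05 or -0.95. Its higher members were ZNF667-AS1, ZNF667 and PEG3, with ZNF667-AS1 under the limit on the first 3 arrays and at 733 in P4, at least 19.1-fold higher. ZNF560 was at least 7.61-fold higher.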

How the data were processed

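Per the labels' protocols, Trizol-extracted RNA was column-cleaned with DNase I, checked on a Bioanalyzer, and amplified to biotinylated cRNA for Illumina bead arrays. The authors deposited a linear intensity for each of 47323 probes; background subtraction and scaling by the authors are apparent from them, with 25.2% to 25.4% of probes below 0 and near-equal medians, and no source used here names the software. A common distribution hides differences in total RNA. Scale factors and any reordering of values before deposit are unknown.

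No further normalization was applied. Values were raised to each array's 60th percentile, the limit used above, and log2 transformed, and P1 was subtracted from P4. Where a gene had several probes, the 1 brightest on average across the arrays stood for it. The platform annotation gave 1 symbol for 30113 probes, of which 30074 matched a RefSeq entry (GRCh38.p14), several for 8, and none for 17202, which stay unnamed. Bright genes reached 10 times the limit on both arrays. With 1 array a group no test was possible, nothing says that arrays came from separate cultures, and the number of arrays limits precision. Folds describe the arrays. Genes of the X-inactivation centre and Y-linked genes were not analysed here.

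Members, 73 gene lists and 2 added ones were chosen with earlier results of these data known. Named genes were the 15 brightest moderate differences each way, the 8 largest differences of bright genes each way, up to 4 bright members of each described list with the largest differences (members measured on both arrays where under 3 were bright), the 4 largest bounds each way, and POU5F1, NANOG, SOX2, LIN28A, DNMT3B and BCL2L1; other named genes were chosen after their values were seen. Alternatives were quantile normalization, centring, a lowess curve, floors at the 50th and 75th percentiles, an offset of 50, the mean over a gene's probes, and bright limits of 4 and 20 times the floor; those on probe agreement and on leaving out X-linked and 20q11.21 genes were added after the data were seen. Sequences came from RefSeq. The calculation was tested on simulated data. Python 3.11.15, pandas 2.3.3 and numpy 2.4.6 were used, with statsmodels 0.14.6 for lowess.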

Additional observations from a re-analysis of the deposited data

Results flagged for a closer look

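Probes without a gene name carried differences of their own, which no comparison above uses. Intensities follow the order of passage, P1 first. Of 1463 bright unnamed probes, 89 were at least 1.5-fold lower in P4 (6.08%) and 19 were at least 1.5-fold higher (1.3%), beside 2.3% and 2.98% of bright named genes. The units differ, since unnamed probes were each counted, while a named gene was counted by its brightest probe alone. The largest difference, on probe ILMN_1815124, went with 8108, 405, 535 and 443, 18.3-fold lower. ILMN_1691449 read 8038, 670, 650 and 653, 12.3-fold lower, and for both P1 stood high alone. The largest on the higher side, ILMN_1743078, read 2275, 2676, 3349 and 5293, 2.33-fold higher. No group is labelled as a control, and the difference between named and unnamed probes was not tested.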

How the results depend on the processing

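No paired analysis was possible because each group has 1 array. Under quantile normalization, centring on the median of bright genes, the lowess curve and the mean over a gene's probes, every count of genes stayed within 1.5 times its value above. The number of genes admitted moved with the limits. With the floor at the 50th percentile, there were 294 moderately higher bright genes and 235 moderately lower bright genes, and 399 genes at least 2-fold higher and 294 genes at least 2-fold lower. With the floor at the 75th percentile these were 37, 48, 75 and 42, so that lower genes then outnumbered higher ones among the bright, and X-linked bright genes at least 1.5-fold higher numbered 17 of 87, or 19.5%. With an offset of 50, 103 genes passed 2-fold on the higher side and 56 on the lower. With bright limits of 4 and 20 times the floor, 322 and 90 genes were moderately higher and 250 and 82 moderately lower. The X-linked share stayed between 19.5% and 22.9% under all these settings. The count of 20q11.21 genes at least 1.5-fold higher, 11 of 15 above, ran from 10 to 13, with 14 to 16 members measured. It takes all measured members, so the bright limits do not enter it. Leaving out genes whose next probe was over 10 times dimmer left 81 moderately lower and 137 moderately higher genes. Only genes with at least 2 measured probes gave 57 higher and 48 lower, of 1972. Without X-linked and 20q11.21 genes, 111 moderately higher genes were left. Among the 73 lists, only the 20q11.21 list (1.27) and the Cajal body and spliceosomal list (-0.75) had a median past 1.5-fold, and neither changed sign. No gene past 1.5-fold among those the naming rule chose changed sign, and other named genes were not recomputed. Named genes moved by more than the spread between probes of a gene in 72 comparisons of a gene with a setting and by less in 2133, with 35 of them when probes were averaged: ZNF69 then gave -0.16, FMC1 -0.12, TDP1 -0.24, ZNF626 -0.14, IMPDH1 0.10 and HNRNPDL 0.22. Class medians moved by more than that spread in 8 comparisons and by less in 501. The medians of the Wnt list (0.15 at the 75th percentile) and of the Hippo list (-0.09 at the 50th) changed sign. At the 75th percentile the protocadherin median went from 0.43 to 0.23 and the ectoderm and neural median from 0.31 to 0.09. The causes were not tested. Dim genes are limited by their signal over background.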

Other observations

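A few groups lie outside the lists above, with intensities again from P1 to P4. Among the moderately higher bright genes were ANXA2 (2146, 4422, 2893 and 4576, 2.13-fold), ANXA5 (3123, 3792, 4830 and 4861, 1.56-fold) and S100A11 (593, 791, 1546 and 1125, 1.90-fold), of the calcium-binding annexin and S100 families. P1 was the lowest array for all 3. These genes were picked after their values were seen, and the other members of both families were not counted.

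AASS, the first enzyme of lysine breakdown, read 1639, 2656, 2907 and 3260, 1.99-fold higher, and its next probe was also higher, with a log2 difference of 0.66. ULK1, a kinase that starts autophagy, read 1590, 3006, 2515 and 2522, 1.59-fold higher. HAS3, a hyaluronan synthase, read 975, 2166, 1617 and 1795, 1.84-fold higher. BBS9, of the ciliary BBSome, read 976, 291, 215 and 1893, 1.94-fold higher, with P2 and P3 below both, while its next probe gave -0.23.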
